A study of Mus musculus with 18 samples.

Results

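Chemokine ligands are small secreted or membrane-anchored proteins that direct the movement of immune cells. The genes of 10 of them are described here across the 4 groups of the study: Ccl2, Ccl3, Ccl4, Ccl6, Ccl9, Ccl12, Cxcl10, Cxcl16, Cx3cl1 and Cxcl12. They were taken by name from the count table, and all 10 were found among its 54532 genes. All mice were of the rd1 (FVB) strain at postnatal day 30, an age at which the inherited Pde6b defect of this strain has removed most rods. Eyes had received either a subretinal AAV8 vector for green fluorescent protein (AAV8-GFP) or that vector together with one for transforming growth factor beta 1 (AAV8-GFP + AAV8-TGFB1). The control groups thus received virus too, but only the TGFB1 groups received a second vector. A difference due to TGFB1 cannot be told apart from one due to the added vector. Retinas were dissociated with papain and sorted by antibody staining into microglia, the resident macrophages of the retina, and non-microglia, a mixture of all other cells. Microglia form 7 GFP and 7 TGFB1 libraries, numbered 2 to 8, and non-microglia 2 GFP and 2 TGFB1 libraries, numbered 1 and 2. The labels name no uninjected retina, and the sources used here do not give the promoters of the vectors.

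Chemokines bind receptors with 7 membrane-spanning helices on leukocytes and microglia, and are classed by the spacing of their first cysteines into CC, CXC and CX3C ligands. Several CC ligands of macrophages and microglia are induced by inflammatory signals, and some are also induced when cells are handled during tissue dissociation. Cx3cl1 and Cxcl12 are known as ligands made by neurons, vessels or stromal cells, while their receptors lie on other cells.

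The 27 coding bases around the first cysteines are shown for 9 members because they place each ligand in its class. Cysteine codons are in capitals and the sequences, 5′ to 3′, come from GENCODE M21 transcripts of GRCm38.
Ccl2: ccactcaccTGCTGCtactcattcacc
Ccl12: ccagtcacgTGCTGTtataatgttgtt
Ccl4: cccacttccTGCTGTttctcttacacc
Ccl6: tcttcagacTGCTGCttctcttatgcc
Ccl9: tcttcagatTGCTGCctgtcctataac
Cxcl10: acggtccgcTGCaacTGCatccatatc
Cxcl16: gctggaagtTGTtctTGTgatcgtacc
Cxcl12: agctaccgaTGCcccTGCcggttcttc
Cx3cl1: atgacgaaaTGCgaaatcatgTGCgac

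The 5 CC ligands shown have adjacent cysteine codons, Cxcl10, Cxcl16 and Cxcl12 have 1 codon between them, and Cx3cl1 has 3. Among the 10 longest transcripts, the only stretch of 25 bases shared between members was a single one in Ccl6 and Ccl9. All members are protein-coding genes, and 7 of the 10 lie on chromosome 11 (GRCm38). Ccl2 (ENSMUSG00000035385) lies at chr11:82035571-82037453 on the plus strand, and Ccl12 (ENSMUSG00000035352) downstream of it at chr11:82101845-82103400. Ccl9 (ENSMUSG00000019122, chr11:83572919-83578636, minus strand) and Ccl6 (ENSMUSG00000018927, chr11:83587882-83593087, minus strand) are neighbours. So are Ccl3 (ENSMUSG00000000982, chr11:83647844-83649355, minus strand) and Ccl4 (ENSMUSG00000018930, chr11:83662584-83664683, plus strand). Cxcl16 (ENSMUSG00000018920, chr11:70453983-70459984, minus strand) shares 18.3% of its exon bases with Zmynd15 on the opposite strand. Cxcl10 (ENSMUSG00000034855, chr5:92346638-92348889, minus strand) shares 5.91% with Art3 on the opposite strand. Cx3cl1 (ENSMUSG00000031778) lies at chr8:94772009-94782427 and Cxcl12 (ENSMUSG00000061353) at chr6:117168535-117181367, both on the plus strand. The sources used here do not give the strand setting of the counting, so reads in the exons that Cxcl16 or Cxcl10 share with their partners cannot be told apart.

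Library totals ran from 1582451 to 3064027 counts. Tgfb1, the gene of the vector, had 0 counts in both GFP non-microglia libraries against 462 and 402 counts in the TGFB1 non-microglia libraries. In microglia it was between 8.71 and 15.9 CPM (counts scaled to a total of 1000000 after TMM normalization) in GFP libraries and between 9.18 and 25.7 in TGFB1 libraries. As a check of the sort, the summed level of 12 microglia markers was 41720 to 51730 CPM in microglia libraries and 59.5 to 70.7 in non-microglia, where C1qa and Fcrls were at 0 in both GFP libraries. Summed markers of monocytes and perivascular macrophages were 13.5 to 36.8 CPM in GFP and 17.9 to 70.9 CPM in TGFB1 microglia, with Cd209f at 0 in the GFP group and Ly6c2 at 0 in the TGFB1 group. The part of such cells in the ligand values was not tested. Of 8 neutrophil markers, 7 had 5 counts or fewer over each microglia group, and the eighth, the cytokine receptor gene Csf3r, was at 627 to 744 CPM in GFP and 669.9 to 767 in TGFB1 microglia, with 1 count over the 4 non-microglia libraries. Xist counts were present in microglia replicates 2, 7 and 8 of each treatment. In these bulk libraries, fewer cells of a type and less RNA per cell cannot be told apart.

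Transcripts of 6 CC ligands were found mainly in microglia, and those of Cxcl12 mainly in the rest of the retina. In GFP retinas Ccl2, Ccl3, Ccl4, Ccl6, Ccl9 and Ccl12 were higher in microglia than in non-microglia, and Cxcl16 and Cxcl12 were lower (edgeR, adjusted p under 0.05). In TGFB1 retinas the same 6 were higher, and Cx3cl1 and Cxcl12 were lower. Of the 6, all but Ccl9 passed the low-count filter through the microglia libraries alone, which largely fixed the direction of their calls. These 6 and 2 of 10 members stand beside 29.9% of all 15321 tested genes called higher and 34.2% called lower in GFP retinas, and 30.8% and 34.4% in TGFB1 retinas. No median over the members is given. The fitted log2 differences of Ccl3, Ccl6 and Ccl12, which had 0 counts in non-microglia, have no defined size.

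Ccl3, Ccl6 and Ccl12 had 0 counts in all 4 non-microglia libraries. Set against a floor of 3 counts per library, Ccl6, a macrophage ligand of CCR1, was at least 242-fold higher in microglia of GFP retinas (229 ± 26.5 CPM, SD, n = 7) and at least 206-fold higher in TGFB1 retinas. Ccl12, a ligand of CCR2, was at least 130.1-fold and 128.0-fold higher in turn. Ccl3, also named MIP-1 alpha, was at least 119-fold and 144-fold higher. Ccl4, also named MIP-1 beta, had a single count in 1 GFP non-microglia library. That is under the floor, so only the lower end of the 95% Poisson interval of its ratio, 78.99, is given. In the TGFB1 non-microglia libraries Ccl4 had 0 counts and was at least 108-fold higher in microglia. These bounds do not rank the treatments. The non-microglia libraries held 2318212 to 2604930 counts, and TMM normalization scaled these totals up. On that scale the floor of 3 counts, taken as the limit for 0 counts, was 0.946 CPM in GFP and 0.977 CPM in TGFB1 retinas. These limits, the bounds and the intervals cover counting error only, since reads without molecular identifiers are not independent molecules.

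Ccl2, the monocyte attractant MCP-1, was found in the other fraction too, with 3 and 19 counts in the GFP and 2 and 0 counts in the TGFB1 non-microglia libraries. Its microglia to non-microglia ratio was 10.9 (95% Poisson interval 7.20 to 17.4) in GFP retinas. In TGFB1 retinas the counts were under the floor, and only the lower end of the interval, 29.9, is given. The Poisson intervals of Ccl2 and Ccl9 pool both libraries of a group and leave out the spread between them. Ccl2 was at 0.881 and 6.40 CPM in the GFP non-microglia libraries. The 2 GFP non-microglia libraries differ widely from each other, and the call in GFP retinas held without either of them (log2 difference 2.58 to 5.35 over all libraries left out in turn). Ccl9, a ligand of CCR1, had 12 and 10 counts in GFP and 4 and 2 in TGFB1 non-microglia, for ratios of 36.7 (24.3 to 58.6) and 148.9 (68.4 to 406).

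Cxcl12, the ligand of CXCR4 and ACKR3 known from stromal and vessel cells, had 126 and 67.4 CPM in the GFP and 54.8 and 134.5 CPM in the TGFB1 non-microglia libraries. In microglia it had 0 to 12 counts per GFP library and 0 to 13 per TGFB1 library. Its log2 difference between fractions was -5.41 (SE 0.64, edgeR adjusted p = 1.71e-06) in GFP retinas and -6.20 (SE 0.70, edgeR adjusted p = 1.11e-06) in TGFB1 retinas. The microglia level was 2.45% and 1.74% of the non-microglia level, beside 3.29% and 2.41% for the summed endothelial markers and 6.66% and 5.27% for the summed pericyte and smooth muscle markers. Marker sums of other retinal cells ranged from 2.46% (rods) to 252% (retinal ganglion cells) in GFP retinas. In TGFB1 retinas they ranged from 2.04% (bipolar cells) to 159% (retinal ganglion cells). The part of any such cells in the microglia values of Cxcl12 was not tested.

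Cxcl16, a membrane-anchored ligand that binds CXCR6 and also acts as a scavenger receptor, was present in both fractions. Non-microglia had 85.5 and 95.6 CPM in GFP and 83.2 and 84.8 CPM in TGFB1 libraries, and no microglia library reached these values. The microglia mean was 62.4% of the non-microglia mean in GFP retinas (log2 difference -0.67, SE 0.15, edgeR adjusted p = 0.000328). In TGFB1 retinas it was 79.7% and was not called (-0.33, SE 0.15, edgeR adjusted p = 0.058), but it was called with RLE size factors (-0.45, adjusted p = 0.0106, range 0.00974 to 0.255 over all alternatives). Zmynd15, which shares exon bases with it, was at 29.7 to 30.0 CPM in GFP and 19.2 to 25.7 in TGFB1 non-microglia, and at 10.6 to 26.8 in microglia, and its part in these values was not tested.

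Cx3cl1, the neuronal ligand fractalkine whose receptor marks microglia, had 28.2 and 17.2 CPM in the GFP and 48.6 and 30.9 CPM in the TGFB1 non-microglia libraries. Microglia held 58.2% of that level in GFP retinas (log2 difference -0.84, SE 0.55, edgeR adjusted p = 0.193) and 16.1% in TGFB1 retinas (-2.75, SE 0.54, edgeR adjusted p = 0.000266). The GFP value rests on 1 library: without GFP microglia replicate 2 the difference was -1.25 with an adjusted p of 0.0141 (range 0.0141 to 0.699 with each library left out in turn).

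**Figure D1:**
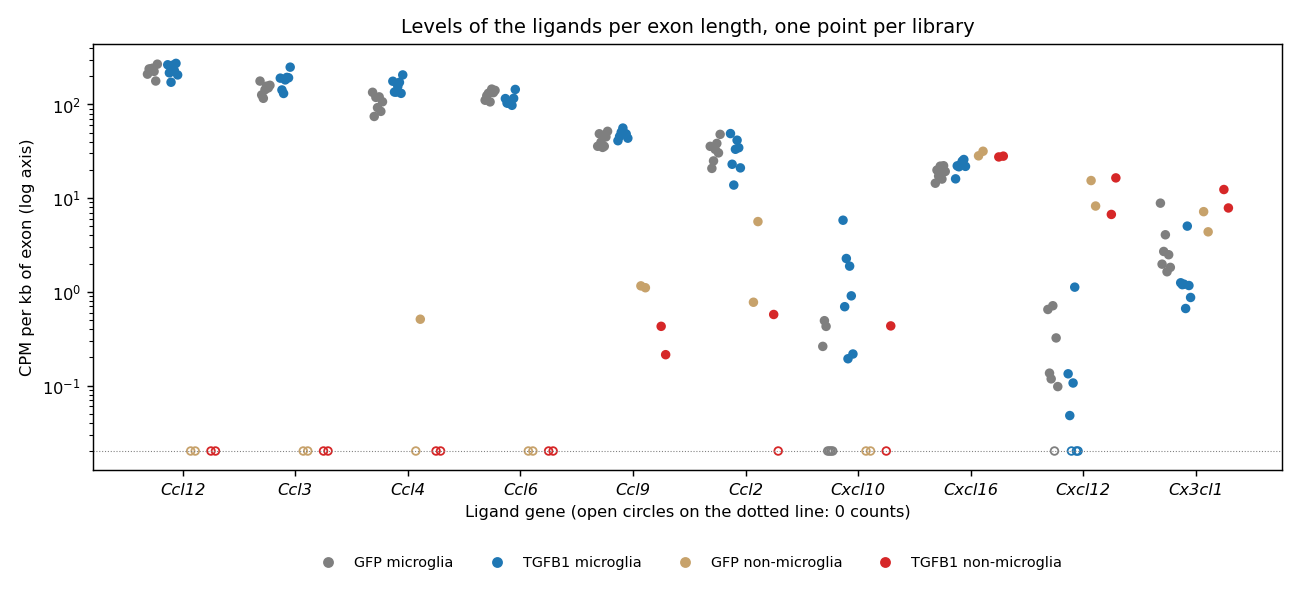
Level of each ligand per kilobase of exon in every library (CPM per kb, log axis), by group, with open circles on the dotted line for libraries with 0 counts. The 6 CC ligands are lower in every non-microglia library than in any microglia library, and Cxcl16 and Cxcl12 have the highest means in GFP non-microglia, where the values of Cx3cl1 and Ccl2 overlap.

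Per kilobase of exon, on which levels of different genes can be set side by side, Ccl12 led in GFP microglia with a level of 229 CPM per kb (SD 28.8, n = 7), with its lowest library (177.9) just above the highest of the next gene (177.6). With CPM from library totals, or with the longest transcript as the length, the ranges overlapped. Ccl3 (147), Ccl6 (128) and Ccl4 (104.6) followed, and the library ranges of neighbours in this order overlapped. Ccl9 (41.6), Ccl2 (33.1) and Cxcl16 (18.7) formed a lower tier, also with overlapping neighbours and with no library of Ccl9 reaching Ccl4. Cx3cl1 (3.36), Cxcl12 (0.29) and Cxcl10 (0.17) were lowest. In TGFB1 microglia the order began with Ccl12 (233), Ccl3 (183.5) and Ccl4 (159), then Ccl6 (112), each overlapping the next. With the longest transcript as the length, Ccl6 (159) stood above Ccl3 in GFP microglia. In GFP non-microglia the order was Cxcl16 (30.0), Cxcl12 (11.8), Cx3cl1 (5.77), Ccl2 (3.20) and Ccl9 (1.13), with both Cxcl16 libraries above both Cxcl12 libraries. The summed level of the 10 ligands was 771 ± 48.4 CPM in GFP microglia and 831 ± 76.4 in TGFB1 microglia (SD, n = 7), with overlapping ranges.

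In microglia, TGFB1 changed none of the ligands past the threshold, and Ccl4 came nearest. Of the 10 members 8 passed the low-count filter, and 0 of these were called with edgeR, beside 34 of all 10970 tested genes or 0.310%. Of the 8, 6 (Ccl3, Ccl4, Ccl6, Ccl9, Cxcl16 and Cx3cl1) had an unadjusted p under 0.05, beside 6.65% of all tested genes, with Ccl3, Ccl4, Ccl9 and Cxcl16 higher and Ccl6 and Cx3cl1 lower. The median log2 fold change of the 8 was 0.10, beside 0.00 over all genes. No member had groups that did not overlap, beside 0.219% of all tested genes. Nothing in the labels says that the libraries of 1 group are separate mice, so each p measures how far these libraries vary, and some of that variation may be technical.

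**Figure D2:**
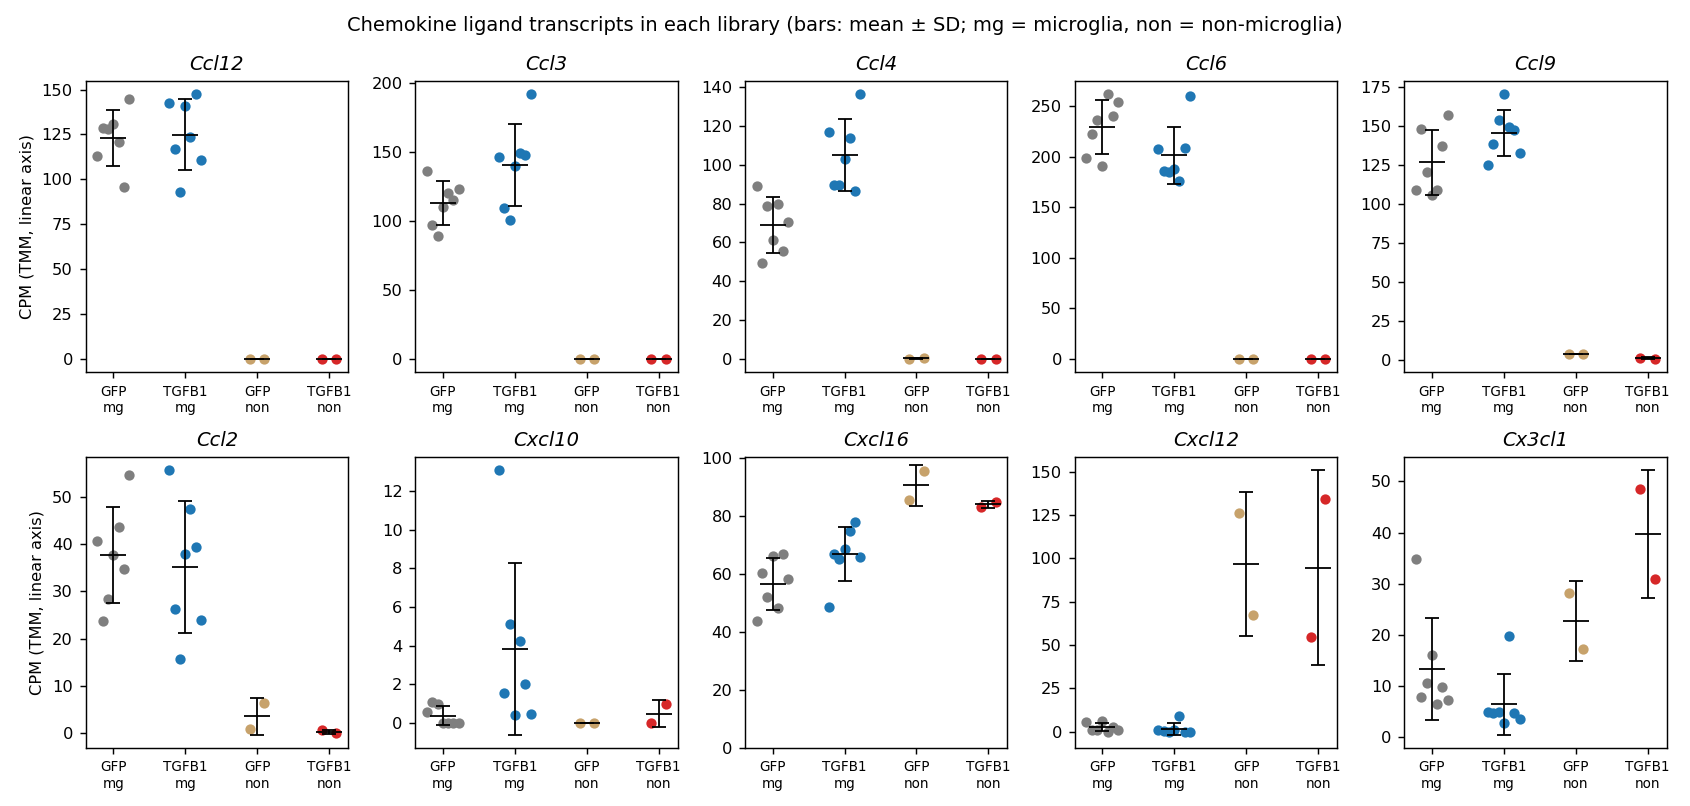
CPM of each of the 10 ligands in every library (points, linear axes) with group means and SD (bars), for GFP and TGFB1 microglia and non-microglia. For Ccl4, 6 of 7 TGFB1 microglia libraries lie above all GFP microglia libraries.

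Ccl3 and Ccl4, neighbouring genes of inflammatory macrophage ligands, both had higher means in TGFB1 microglia. Ccl4 ran from 49.1 to 88.9 CPM with a median of 70.5 in GFP libraries, and from 86.7 to 136 with a median of 103 in TGFB1 libraries. Of the TGFB1 libraries 6 lay above all GFP libraries, and the seventh, replicate 7, lay just under the highest GFP library, replicate 2. The ratio of means was 1.52 and the log2 fold change 0.60 (SE 0.14, edgeR adjusted p = 0.071). This result crosses the threshold with other choices: the adjusted p was 0.00306 with DESeq2, which called 0.410% of all genes, 2.31e-05 in edgeR without the low-count filter (0.153% called), and 0.0206 without GFP replicate 2 (0.306% called). Ccl4 was also called with a block for the replicate number. Over all alternatives the log2 fold change stayed between 0.44 and 0.72 and the adjusted p ran from 2.31e-05 to 0.945, the latter in replicates 2 to 4 alone.

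Ccl3 ran from 89.1 to 136 CPM (median 115) in GFP and from 100.3 to 192 (median 146) in TGFB1 libraries. Of the TGFB1 libraries 5 lay above all GFP libraries and the other 2 within their range. Its log2 fold change was 0.31 (SE 0.13, edgeR adjusted p = 0.688). Within a library, Ccl4 had 0.617 ± 0.135 counts per count of Ccl3 in GFP microglia and 0.758 ± 0.0952 in TGFB1 microglia (SD, n = 7), a ratio added after the values were seen and not tested.

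Ccl6 and Ccl9, neighbouring genes of ligands of CCR1, had opposite signs. Ccl6 ran from 191 to 262 CPM (median 236.5) in GFP and from 176 to 259.5 (median 188) in TGFB1 libraries, for a log2 fold change of -0.19 (SE 0.08, edgeR adjusted p = 0.662). Of the TGFB1 libraries 4 lay below all GFP libraries, and replicate 8 lay near the top of the GFP range. Ccl9 ran from 106 to 157 CPM (median 120.4) in GFP and from 125 to 170.4 (median 147) in TGFB1 libraries, for a log2 fold change of 0.19 (SE 0.09, edgeR adjusted p = 0.729). Of the GFP libraries 4 lay below all TGFB1 libraries, and the other 3 lay within their range. In the 3 and 3 libraries with Xist counts the log2 fold change was -0.04 for Ccl6 and -0.0033 for Ccl9, and in the others -0.32 and 0.34, with no adjusted p under 0.450. Ccl9 counts per count of Ccl6 were 0.555 ± 0.0798 in GFP and 0.737 ± 0.142 in TGFB1 microglia, also a ratio added after the values were seen and not tested.

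Ccl2 and Ccl12, which both bind CCR2, had the smallest log2 fold changes of the 8. Ccl2 ran from 23.6 to 54.6 CPM (median 37.8) in GFP and from 15.7 to 55.6 (median 37.8) in TGFB1 libraries. Its log2 fold change was -0.13 with an SE of 0.27 (edgeR adjusted p = 0.968), and the TGFB1 range enclosed the GFP range. Ccl12 ran from 95.6 to 145 CPM (median 128) in GFP and from 92.7 to 147 (median 123.5) in TGFB1 libraries. Its log2 fold change was 0.01 with the smaller SE of 0.10 (edgeR adjusted p = 0.995). The sign of both changed with single libraries left out.

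Cxcl16 ran from 43.6 to 67.0 CPM (median 58.2) in GFP microglia and from 48.6 to 78.1 (median 66.8) in TGFB1 microglia. For Cxcl16, 3 TGFB1 libraries lay above all GFP libraries, and the lowest, replicate 2, lay inside the GFP range. The log2 fold change was 0.23 (SE 0.11, edgeR adjusted p = 0.738). Zmynd15 ran from 10.6 to 23.7 CPM in GFP and from 14.2 to 26.8 in TGFB1 microglia, and its part in the Cxcl16 value was not tested.

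Cx3cl1 ran from 6.44 to 34.8 CPM (median 9.78) in GFP microglia and from 2.61 to 19.8 (median 4.69) in TGFB1 microglia. For Cx3cl1, 6 TGFB1 libraries lay below all GFP libraries, and TGFB1 replicate 6 was the exception. The log2 fold change was -1.11 (SE 0.51, edgeR adjusted p = 0.746). It was -0.68 without GFP replicate 2 and -1.63 without TGFB1 replicate 6, with adjusted p of 0.779 and 0.104. In the libraries with Xist counts it was -1.95 and in the others -0.49.

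The 2 libraries with the most Cx3cl1 also had the highest sums of their groups for several lists of markers of other retinal cells. Of 11 such lists, GFP replicate 2 was highest of its group in 7 and TGFB1 replicate 6 in 5, with amacrine, bipolar, endothelial and pericyte markers common to both. For Mueller glia, cone and rod markers neither library was the highest. GFP replicate 2 had the highest sum of its group for 10 amacrine markers (108 CPM, group range 9.96 to 108), 10 bipolar markers (251.5, range 15.5 to 251.5) and 10 endothelial markers (175, range 19.8 to 175). TGFB1 replicate 6 likewise had the highest sums of its group, 65.7 for amacrine markers (range 8.60 to 65.7), 122 for bipolar markers (12.2 to 122) and 86.1 for endothelial markers (15.7 to 86.1). None of the amacrine, bipolar or endothelial markers was at 0 in all libraries of either group. The part of this RNA in the Cx3cl1 values was not tested.

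Cxcl10, an interferon-induced ligand of CXCR3, was too low for the filter, with 6 counts over the 7 GFP microglia libraries and 54 over the 7 TGFB1 libraries. GFP replicates 2, 3 and 4 had 1, 3 and 2 counts and the other 4 libraries had 0. The TGFB1 replicates 2 to 8 had 24, 4, 14, 1, 6, 4 and 1 counts, or 0.435 to 13.1 CPM with a median of 2.04. For Cxcl10, 5 TGFB1 libraries lay above all GFP libraries, replicates 5 and 8 lay inside the GFP range, and every TGFB1 library lay above the GFP mean of 0.380 CPM.

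The mean log2 CPM of Cxcl10, with a prior count of 2, was 1.75 in TGFB1 and 0.18 in GFP microglia, a difference of 1.57 (exact two-sided permutation test, 3432 arrangements, p = 0.00816). The test was added after the counts were seen and is not adjusted over genes. Without TGFB1 replicate 2, which holds 24 of the 54 counts, the difference was 1.23 and the exact p 0.0163, and with each library left out in turn the p ran from 0.00583 to 0.0163. In edgeR without the low-count filter, over 41913 genes, the log2 fold change was 3.13 (SE 0.67, adjusted p = 0.00317). Cxcl12 was the other member under the filter, with 35 counts over the GFP and 18 over the TGFB1 microglia libraries, 13 of the 18 in TGFB1 replicate 6. Its difference in mean log2 CPM was -0.69 (two-sided exact permutation test, p = 0.295) with all libraries, and -1.14 (exact p = 0.0466) without TGFB1 replicate 6.

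**Figure D3:**
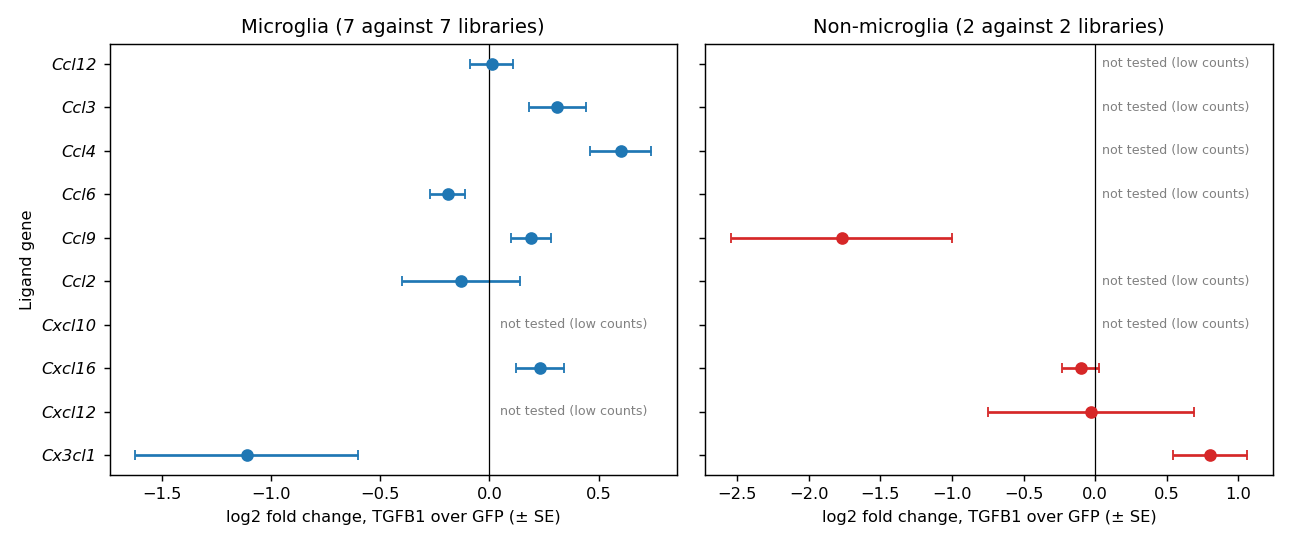
Log2 fold change of TGFB1 against GFP (points) with its SE (bars) for the members tested in microglia and in non-microglia; members under the low-count filter are marked as not tested. Ccl4 in microglia (0.60) and Cx3cl1 in non-microglia (0.80) have the intervals farthest above 0, and neither passed the threshold.

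The 250 bases before the start of Cxcl10 are shown because it had the largest relative difference between treatments in microglia and was the only one of 7 member promoters in the RefSeq table to hold an interferon-response-like motif. They lie at chr5:92348890-92349139 on the minus strand (RefSeq, GRCm38.p6), with motif matches in capitals.
Cxcl10 upstream: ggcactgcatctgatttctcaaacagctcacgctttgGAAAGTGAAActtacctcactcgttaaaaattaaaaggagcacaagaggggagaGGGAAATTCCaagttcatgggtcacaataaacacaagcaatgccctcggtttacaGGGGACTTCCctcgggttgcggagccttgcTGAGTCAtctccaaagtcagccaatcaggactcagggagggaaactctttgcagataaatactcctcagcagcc

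The capitals mark, from 5′ to 3′, an interferon-response-like motif (GAAA, any 2 bases, GAAA) 213 to 204 bases before the start, an NF-kappaB-like motif (GGG, any 3 bases, TTCC) at 159 to 150 and again at 104 to 95, and an AP-1 motif (TGA, any base, TCA) at 74 to 68. Searched on both strands, the interferon-response-like motif was in 2.98% of all 32851 promoters of the same length, the NF-kappaB-like motif in 4.65% and the AP-1 motif in 6.75%. Other NF-kappaB-like forms, with 2 free bases before TTCC (4.98% of promoters) or 4 before TCC (16.5%), overlap these matches. Of the 7 member promoters, that of Ccl9 also had the NF-kappaB-like and AP-1 motifs. The letters TATAAA, those of a TATA box (12.4% of promoters), were 31 to 26 bases before the start in Ccl12, farther upstream in Ccl9, and 6 to 1 bases before it in Cx3cl1. The SMAD palindrome GTCTAGAC (0.167%) and the SMAD-like letters CAGACA (17.1%) were in none of the 7. A match is a description of the letters only.

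Of 18 interferon response genes, 14 were tested in microglia and 0 were called, 12 with a positive sign, and their median log2 fold change was 0.25 beside 0.00 for all genes. The smallest p belonged to Gbp2, a guanylate-binding protein (0.88, SE 0.28, edgeR adjusted p = 0.343), and Oasl2, an oligoadenylate synthetase relative (0.94, SE 0.34, edgeR adjusted p = 0.517). Their summed level was 255 to 339 CPM in GFP and 313 to 497.5 CPM in TGFB1 microglia, and replicate 2, which had the most Cxcl10, was also highest here. TGFB1 replicate 4, second for Cxcl10, had a sum of 315 CPM, inside the GFP range. Of 16 NF-kappaB feedback and inflammatory genes, 14 were tested and 0 called (median 0.14), with Rel, an NF-kappaB subunit, at 0.21 (edgeR adjusted p = 0.549) and the adhesion gene Icam1 at 0.15 (edgeR adjusted p = 0.729). Of 20 immediate early genes, which rise when cells are dissociated, 16 were tested and 0 called (median -0.05). Among them the transcription factor gene Egr2 was at 0.77 (edgeR adjusted p = 0.156) and the phosphatase gene Dusp1 at -0.47 (edgeR adjusted p = 0.379).

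In non-microglia, TGFB1 likewise changed no ligand past the threshold. Of the 10 members 4 passed the filter and 0 were called, beside 0.390% of 13598 tested genes. Ccl9 and Cx3cl1 had an unadjusted p under 0.05, beside 7.63% of all genes. For 3 of the 4, Ccl9, Cxcl16 and Cx3cl1, the 2 and 2 libraries did not overlap, beside 36.4% of all tested genes. Their median log2 fold change was -0.07, beside 0.00 over all genes.

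Cx3cl1 was higher in both TGFB1 non-microglia libraries (48.6 and 30.9 CPM) than in either GFP library (28.2 and 17.2 CPM). Its log2 fold change was 0.80 (SE 0.26, edgeR adjusted p = 0.342). Without the low-count filter, which called 0.346% of all genes, the adjusted p was 0.0487. Cx3cl1 was also called with a block for the replicate number. Without GFP replicate 1 (0.771% called) the log2 fold change was 1.21 with an adjusted p of 0.00463, against 0.44 to 1.21 over the libraries left out in turn (adjusted p 0.00463 to 1 over all alternatives). The lone library left in such a group is assumed to vary like the other group. Beside it, 7 of 9 tested bipolar cell markers were called higher in TGFB1 non-microglia, against 46 of all 13598 tested genes. Their sums were 1412 and 1499 CPM in GFP and 2134 and 2432 CPM in TGFB1 libraries. The sums of 10 amacrine markers were 328 to 343 and 298 to 322. Cone marker sums were lower in TGFB1, at 1705 and 2008 CPM in GFP and 927.5 and 1275 CPM in TGFB1 libraries. Rod and erythroid marker sums were also lower, with 3 of 4 tested erythroid markers called lower, against 7 of all 13598 genes. The part of these cells in the Cx3cl1 value was not tested.

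Ccl9 in non-microglia had 12 and 10 counts in GFP and 4 and 2 in TGFB1 libraries, for a log2 fold change of -1.77 (SE 0.77, edgeR adjusted p = 0.58). Cxcl16 had a log2 fold change of -0.10 (SE 0.13, edgeR adjusted p = 0.953), the smallest SE of the 4. Cxcl12 differed more within treatments than between them, at 126 and 67.4 CPM in GFP and 54.8 and 134.5 CPM in TGFB1 libraries (-0.03, SE 0.72, edgeR adjusted p = 0.996). In the same library order the sums of 9 pericyte and smooth muscle markers were 824, 328, 639.5 and 787 CPM, and those of 10 endothelial markers 1752, 1367, 1274 and 1503. The 2 libraries with more Cxcl12 thus had more of both marker sums, and the part of these cells in the Cxcl12 values was not tested.

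Of the lists around the ligands, the only gene called in non-microglia was Jun, an immediate early transcription factor (-0.48, SE 0.11, edgeR adjusted p = 0.0386). It was 1 of 12 such genes tested, beside 0.390% called of all 13598 tested genes. Of the 12, 9 had a negative sign, with a median log2 fold change of -0.16. None of 14 interferon response genes was called, Rsad2 (-1.86, edgeR adjusted p = 0.487) and Ifit2 (-0.74, edgeR adjusted p = 0.667) having the smallest p. None of 11 NF-kappaB feedback and inflammatory genes was called either, the inhibitor genes Nfkbie (-1.33, edgeR adjusted p = 0.572) and Nfkbia (-0.34, edgeR adjusted p = 0.587) having the smallest p. Of 6 scavenging receptors and proteases tested 0 were called, with Adam10 at 0.22 (edgeR adjusted p = 0.848) and Ackr4 at -0.44 (edgeR adjusted p = 0.885).

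The TGFB1 effects in the 2 fractions were compared in one fit of all 18 libraries, where 0 of 10 members were called, beside 0.0131% of 15321 genes. Ccl2, Ccl9 and Cx3cl1 had an unadjusted p under 0.05, beside 4.64% of all genes. The microglia effect exceeded the non-microglia effect by 1.96 for Ccl9 (log2, SE 0.51, edgeR adjusted p = 0.669) and for Cx3cl1 the difference was -1.91 (SE 0.81, edgeR adjusted p = 1). For Cxcl16 the difference was 0.34 (SE 0.22) and for Cxcl12 -0.78 (SE 1.20), both with an adjusted p of 1. Ccl3, Ccl6 and Ccl12 were at 0 in non-microglia, so no fold is given for them there.

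Whether members vary together among microglia libraries of the same treatment was tested over the 28 pairs of the 8 tested members, and 0 passed an adjusted p of 0.05 for Pearson's r of log2 CPM with treatment means removed (14 libraries, 100000 permutations within groups). The pair of neighbours Ccl3 and Ccl4 had r = 0.59 (permutation p = 0.0266, adjusted 0.231) and rho = 0.60 (p = 0.03), with r = 0.44 without the 2 libraries farthest from the median of Ccl3. Ccl2 and Ccl12 had r = 0.64 (permutation p = 0.0244, adjusted 0.231) and rho = 0.64 (p = 0.0271), with r = 0.56 without 2 libraries. Ccl6 and Ccl9, adjacent on the same strand, had r = 0.05 (permutation p = 0.875). Negative values were found for Ccl4 and Cxcl16 (r = -0.64, permutation p = 0.0216, adjusted 0.231, rho = -0.67, r = -0.74 without 2 libraries). They were also found for Ccl6 and Cx3cl1 (r = -0.62, permutation p = 0.033, adjusted 0.231, rho = -0.70, r = -0.67 without 2 libraries).

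**Figure D4:**
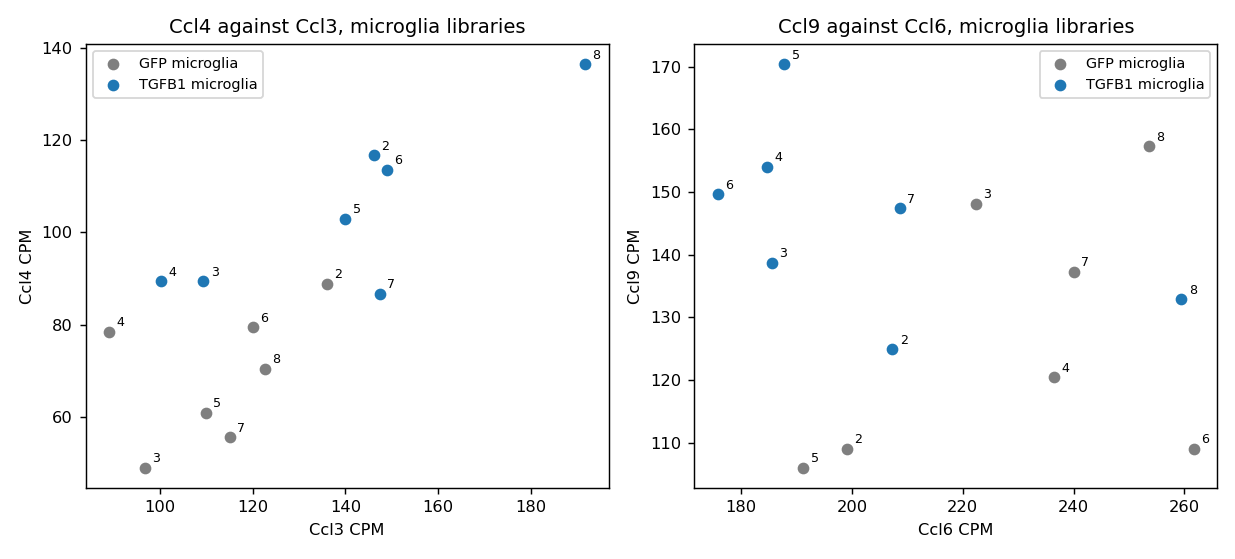
CPM of Ccl4 against Ccl3 and of Ccl9 against Ccl6 in the 14 microglia libraries, numbered by replicate and marked by treatment. Ccl3 and Ccl4 have r = 0.59 with treatment means removed, and Ccl6 and Ccl9 r = 0.05.

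The genes most like each member over the 14 microglia libraries were taken from 8447 protein-coding genes with a mean of at least 10 CPM, as a description of r with treatment means removed. Cx3cl1 was nearest to Sparcl1, a matrix protein gene known from glia and vessels (r = 0.96), then Gm10719 and Gm11168 (both 0.95). Ccl2 was nearest to Snapin (0.92), Osbpl7 (0.88) and Frs2 (0.86), and Ccl12 to Phf11d and Api5 (both 0.84) and Cercam (0.82). Ccl3 was nearest to Trappc8 (0.92), Dyrk2 (0.84) and Bbs12 (0.83), and Ccl4 to Focad (0.85), Lats2 (0.82) and Tsc2 (0.80). Ccl6 was nearest to Man2b2 and Ppid (both 0.88) and Srsf6 (0.85), and Ccl9 to Atf6b (0.88), Rps16 (0.86) and Smarcd2 (0.85). Among the nearest to Cxcl16 were Anapc7 (0.87) and Dync1li1 (0.85). No other ligand was among the 3 nearest genes of any member. The libraries share depth and composition differences, and the highest r of so many genes is large by selection alone.

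Transcripts of several receptors of these ligands were found mainly in microglia. Of 18 receptors analysed 5 passed the low-count filter, all through the microglia libraries alone. All 5 were called higher in microglia under both treatments, beside 29.9% and 30.8% of all tested genes, but the filter largely fixed that direction. Cx3cr1, the receptor of Cx3cl1, was at 5399 ± 214 CPM in GFP microglia (SD, n = 7) with a single count over both GFP non-microglia libraries. Per kilobase, GFP microglia had levels of 1198 CPM per kb for Cx3cr1, 93.9 for Ccr6 and 26.8 for Ccr1, the receptor of Ccl6 and Ccl9. Ccrl2, an atypical receptor, was at 20.9 CPM per kb and Ccr2, the receptor of Ccl2 and Ccl12, at 1.23. Cxcr3, Cxcr4 and Cxcr6, which bind Cxcl10, Cxcl12 and Cxcl16, had only 2, 14 and 16 counts over the GFP microglia libraries. Ackr3, the scavenging receptor of Cxcl12, was lower in microglia (log2 difference -3.86, SE 0.76, edgeR adjusted p = 9.37e-05), at 5.34 CPM in GFP non-microglia. A lower call was made for 34.2% of all tested genes. Ackr3 was under the low-count filter within microglia, so the filter largely fixed this direction too.

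**Figure D5:**
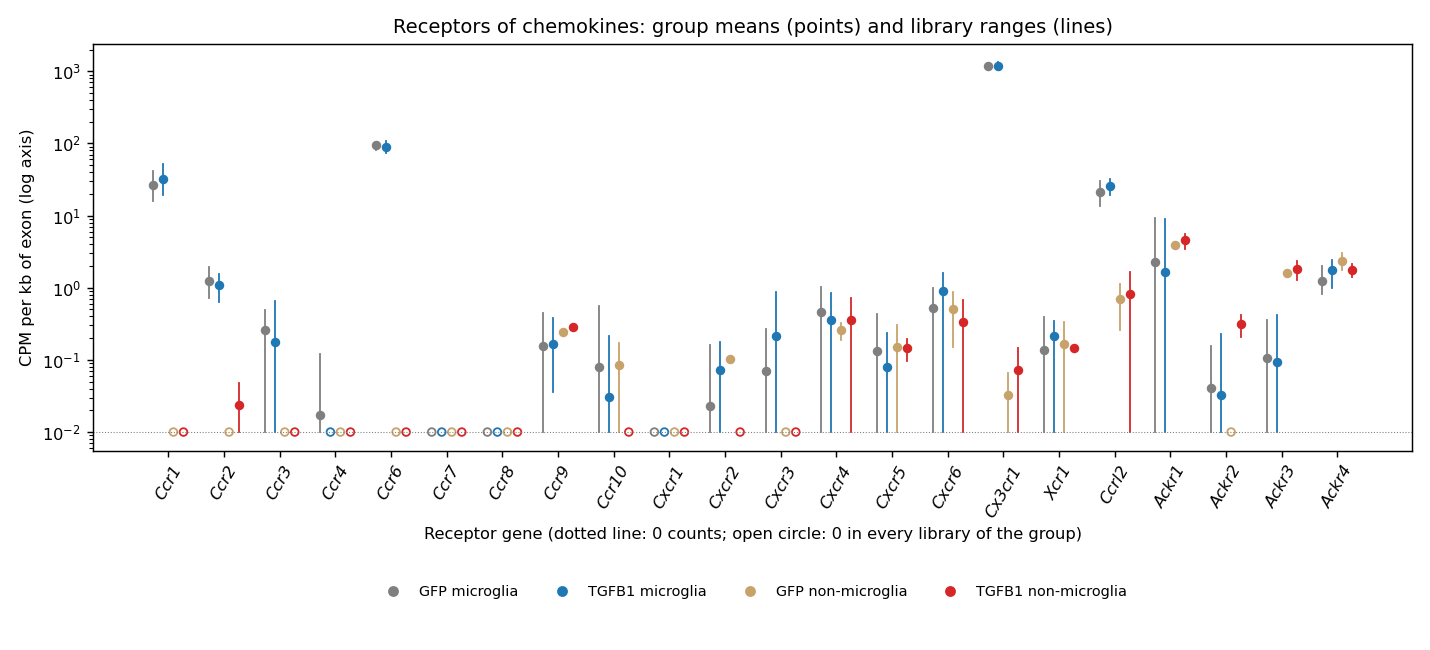
Group means (points) and library ranges (lines) of chemokine receptors, in CPM per kb of exon on a log axis. Cx3cr1 stands highest in microglia at 1198 CPM per kb, while Cxcr3, Cxcr4 and Cxcr6 are near the floor.

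None of the receptors was called for TGFB1 in microglia. Of the 5 tested, Ccrl2 had the smallest p (0.28, SE 0.15, edgeR adjusted p = 0.813), followed by Ccr1 (0.26, SE 0.25, edgeR adjusted p = 0.922). The median over the 5 was -0.03. No receptor passed the filter in non-microglia.

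Of 10 scavenging receptors and proteases that act on chemokines, 5 were tested in microglia and 0 called, beside 0.310% of all tested genes. All 5 had a positive sign, with a median of 0.27 beside 0.00 over all genes. Adam10, the sheddase of Cx3cl1 and Cxcl16, had a log2 fold change of 0.27 (SE 0.07, edgeR adjusted p = 0.222), and Ctss, a lysosomal protease of microglia, 0.17 (SE 0.05, edgeR adjusted p = 0.279). Both sheddases were higher in the microglia fraction of GFP retinas, as were 29.9% of all tested genes. The log2 difference was 2.91 for Adam10 (SE 0.15, edgeR adjusted p = 8.15e-15) and 2.65 for Adam17 (SE 0.12, edgeR adjusted p = 1.91e-15).

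Of 26 other chemokine ligands, 3 were tested in microglia and 0 called, with Ccl25 at 0.61 (SE 0.26, edgeR adjusted p = 0.648) and Ccl5, also named RANTES, at 0.14 (SE 0.36, edgeR adjusted p = 0.975). Their summed level of 31.6 ± 8.15 CPM in GFP microglia was small beside the 771 CPM of the 10 ligands described here. In non-microglia 3 were tested and 0 called, Ccl27a at -0.35 (edgeR adjusted p = 0.865) and Ccl25 at -0.32 (edgeR adjusted p = 0.887) having the smallest p. Between fractions in GFP retinas 5 were tested, 3 called higher in microglia and 2 lower, beside 29.9% and 34.2% of all tested genes. Cxcl14 (1.53), Ccl5 (2.58) and Cxcl13 (3.75, SE 1.59, edgeR adjusted p = 0.0444) were higher on the log2 scale, and Ccl27a (-3.07) and Ccl25 (-2.14) were lower. Cxcl14, Ccl5 and Cxcl13 were under the low-count filter within non-microglia, so the filter largely fixed their direction. Ccl27a was under the filter within microglia.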

How the data were processed

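RNA of sorted microglia and non-microglia from rd1 (FVB) retinas was measured in 18 libraries, made with a modified Smart-Seq2 protocol from polyA RNA, per the labels' protocols. The authors deposited raw read counts per Ensembl gene in a single table, with no normalization. Per the submitters' processing notes, STAR, featureCounts and DESeq2 were used with GRCm38.p6; the sources used here give no versions, annotation release or strand setting. Of 54532 gene identifiers, 54495 matched GENCODE M21, which gave symbols, positions and exon lengths.

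Comparisons were fitted with edgeR 4.0.16 (R 4.3.3, TMM factors, filterByExpr, robust quasi-likelihood F test) on the whole table with Benjamini-Hochberg adjustment over all genes tested, and genes were called at an adjusted p under 0.05. The SE was taken as the log2 fold change over the root of F. Treatments were compared within each fraction. Differences between fractions and between effects came from 1 fit of all 18 libraries. Printed CPM use the TMM factors of that fit. Members under the filter in microglia were compared by an exact permutation test of log2 CPM (prior count 2), added after the counts were seen. Models were tested on simulated data. The 10 members, the lists of related genes and markers and the tests were chosen with earlier results of these data known. All members were named. Of each related list the called genes were named, up to 4, or the 2 with the smallest p where none was called. For likeness, the 3 protein-coding genes with the highest r were named. Some items under these rules are not reported here.

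Alternatives were RLE size factors, no low-count filter, no robust dispersion, DESeq2 1.42.0, a block for the replicate number, the table without rRNA repeat, hemoglobin and Tgfb1 counts, 1 fit of all libraries, libraries with Xist counts (50 or more) or without, replicates 2 to 4 or 5 to 8 alone, covariates for both splits, and each library left out in turn. Motifs were searched in the RefSeq promoter table of GRCm38.p6, without the bases after the start. It held 7 of the 10 members (Ccl2, Ccl4 and Cxcl16 had no entry). Exon overlaps used bedtools 2.31.1.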

Additional observations from a re-analysis of the deposited data

Results flagged for a closer look

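Among the 20 sets of 7 microglia libraries (10 ligands in each treatment), 6 held a library whose gap to its nearest neighbour was large against the whole range of the set by Dixon's criterion. For normally distributed values chance alone marks about 1 in 20 sets. That rate need not hold here, since linear CPM of low counts are skewed and the sets share libraries. For Cx3cl1 these were GFP replicate 2, at 34.8 CPM with the next library at 16.0, and TGFB1 replicate 6, at 19.8 CPM with the next at 4.91. Cxcl12 in the same TGFB1 replicate 6 stood at 9.18 CPM, with the next library at 1.09. Cxcl10 in TGFB1 replicate 2 was at 13.1 CPM, with the next at 5.11. Cxcl16 in that replicate was the lowest of its group, at 48.6 CPM with the next at 65.3. Ccl6 in TGFB1 replicate 8 was at 259.5 CPM, with the next at 209.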

How the results depend on the processing

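Of 600 values of single ligands under the alternatives, 573 kept their direction and their side of the threshold. A further 15 crossed to the side under it, 12 changed direction and 0 crossed to the side above it. The 600 include 14 leave-one-out exact permutation values each for Cxcl10 and Cxcl12, judged at an unadjusted p of 0.05. Of the 15, 1 was such a value and not a call (Cxcl12 without TGFB1 replicate 6, exact permutation p = 0.0466). In microglia the number of ligands called for TGFB1 went from 0 to 2 without the low-count filter (Ccl4 and Cxcl10, beside 0.153% of all genes), to 1 with DESeq2 (Ccl4, 0.410%), and was 0 to 1 with each library left out in turn, the 1 being Ccl4 without GFP replicate 2 (0.306%). In non-microglia it went from 0 to 1 without the filter (Cx3cl1, 0.346%) and was 0 to 1 with each library left out, the 1 being Cx3cl1 without GFP replicate 1 (0.771%). DESeq2 gave Cx3cl1 in microglia no adjusted p.

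Same-numbered microglia libraries correlated between -0.121 and 0.217 in their deviations from group means and the non-microglia ones at -0.07. Of 7 microglia pairs, 2 correlated best with their own number. By this criterion the numbers were not used as pairs, but low correlations cannot exclude pairing. Same-numbered microglia libraries of the 2 treatments were alike in having Xist counts or not. With a replicate block 1 ligand was called in microglia (Ccl4, 0.61, adjusted p = 0.00147, beside 0.547% of all genes) and 1 in non-microglia (Cx3cl1, 0.82, adjusted p = 0.0376, beside 0.802%). Under the block the genes called rose from 26 higher and 8 lower to 41 and 19 in microglia, and from 46 and 7 to 89 and 20 in non-microglia. The block also called Cxcl16 lower in microglia of TGFB1 retinas (-0.34, adjusted p = 0.022).

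Directions turned only where the log2 fold change was near 0 or rested on few libraries. Ccl9 in microglia was -0.0033 in the libraries with Xist counts. Ccl12 was -0.11 in those without and -0.10 in replicates 2 to 4, where Ccl2 was 0.0286. With each library left out in turn, Ccl12 ran from -0.0419 to 0.0785, Ccl2 from -0.28 to 0.0112, Cxcl12 in non-microglia from -0.81 to 0.49, and the Cxcl12 difference of effects from -2.39 to 0.0154. The cause was not tested.

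The genes called in microglia were 39 higher and 25 lower without the filter, 32 and 13 with DESeq2, 17 and 2 in the libraries with Xist counts, 1 and 2 in the others, 3 and 1 in replicates 2 to 4, 4 and 0 in replicates 5 to 8, and 11 and 4 in the fit of all libraries. In non-microglia they were 86 and 16 without the filter and 4 and 0 in the fit of all libraries. RLE factors moved the median of all genes from -0.0591 to -0.175 between fractions of GFP retinas and from -0.0441 to -0.169 in TGFB1 retinas. Cxcl16 in TGFB1 retinas was called lower in microglia also with DESeq2 (-0.46) and without GFP microglia replicate 2, TGFB1 microglia replicate 6 or replicate 7.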
